A study of Homo sapiens with 16 samples.

Results

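The 10 germline and meiosis genes TEX19, DAZL, DDX4, MAEL, TDRD1, STK31, SYCP1, SYCP3, HORMAD1 and TEX101 were taken by gene symbol from the arrays. They are 10 of 32080 gene symbols and had 13 of the 50599 probes. The set was put together because G9a and its partner GLP repress germline genes in somatic cells, and it was chosen in part from measured values, since TEX19 had been seen to fall with the inhibitors in both cell lines. The values of TEX19 against DMSO and under the combination treatment are therefore given as a description, without a test. RPMI-8226 and MM.1S, both established human multiple myeloma cell lines, were treated for 6 days with the solvent DMSO, with GSK126 (1 µM), with UNC0638 (1 µM), or with GSK126 + UNC0638 (1 µM each). GSK126 inhibits EZH2, the methyltransferase of H3K27, and UNC0638 inhibits G9a, a methyltransferase of H3K9. Each of the 8 groups had 2 biological replicates, and each of the 16 RNA samples was hybridised to its own 1-colour array. All groups were cells in culture with no genetic change described, and each cell line is a single tumor-derived line.

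Germline genes are used in the testis and ovary to protect the genome from mobile elements, to store and translate RNA in germ granules, and to pair and recombine chromosomes in meiosis. In other tissues most of them are kept silent by DNA methylation of CpG-rich promoters, by H3K9 methylation through G9a and its partner GLP, and by a Polycomb complex that reaches their promoters with the E2F6 and MGA proteins. Some of them are switched on in tumors, where they are called cancer-testis genes. E2F6 and MGA are known to recognise sequences of the E2F type and the E-box CACGTG.

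The level of a probe is given on a log2 scale relative to the 75th percentile of the array it was read on, so that a level of 0 equals that percentile. The scanner software marks spots that are well above background, and a probe was counted so on an array where at least a share of 0.5 of its spots had the mark. Tests in a cell line were limited to probes with the mark on both arrays of at least 1 of its groups. Values of different probes are not compared, because probes differ in how strongly they bind. The RNA came from whole cultures, so fewer cells expressing a gene and less RNA per cell cannot be told apart. The share of marked spots ran from 46.53% to 49.71% over the RPMI-8226 arrays and from 49.95% to 52.85% over those of MM.1S. All 8 plasma cell markers examined were well above background on both arrays of every group in both cell lines. Of 9 markers of other cell types on the arrays, 5 were well above background on both DMSO arrays in each cell line.

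SYCP3 was the only member other than TEX19 that passed the filter, and it was read by 1 probe of 60 bases. The scanner files place that probe on chromosome 12 between 102128796 and 102130847 of GRCh37, on the minus strand. That span of 2052 bases is longer than the probe, so the probe crosses at least 1 intron of the gene. Its sequence is shown because every SYCP3 value below rests on it.
SYCP3 probe: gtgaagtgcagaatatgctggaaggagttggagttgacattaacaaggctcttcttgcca

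RefSeq (GRCh38.p14) promoter windows of 300 bases around the start site were at hand for 8 of the 10 members, in 12 windows. TEX19 and HORMAD1 were not among them. The E-box CACGTG, which reads the same on both strands, lay in 5 of the 12 windows, of 4 members (DAZL, MAEL, TDRD1 and STK31), while 7.3% of the 35116 promoter windows in the table held it. The E2F-type letters TCCCGC, or GCGGGA on the other strand, lay in 6 of the 12, of 5 members (DAZL, MAEL, STK31, SYCP1 and SYCP3), against 26.9% of all windows. Windows of the same gene are not independent, and the 2 TDRD1 windows overlap and hold the same E-boxes. Both motifs contain a CpG, and the windows compared were not matched for their number of CpG. The 2 motifs do not overlap in letters, and a match shows only that the letters are there. The windows of SYCP3 and MAEL are printed because SYCP3 was tested and the spots of MAEL were followed in detail, with each match in capitals. The SYCP3 window (chr12:101739413-101739712, minus strand) held 24 CpG and 1 E2F-type match, with its first base at -41 from the start site. MAEL had 2 windows on the plus strand. The first (chr1:166975332-166975631) held 60 CpG and 1 E2F-type match, and the second (chr1:166989030-166989329) held 27 CpG, 1 E-box and 1 E2F-type match. The median window in the table held 14 CpG.
SYCP3 promoter: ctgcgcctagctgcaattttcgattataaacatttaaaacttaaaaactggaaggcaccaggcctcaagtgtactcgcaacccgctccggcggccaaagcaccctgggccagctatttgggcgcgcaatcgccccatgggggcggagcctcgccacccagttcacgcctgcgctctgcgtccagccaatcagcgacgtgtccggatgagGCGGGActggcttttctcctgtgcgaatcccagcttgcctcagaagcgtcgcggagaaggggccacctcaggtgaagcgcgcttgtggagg
MAEL promoter, first start: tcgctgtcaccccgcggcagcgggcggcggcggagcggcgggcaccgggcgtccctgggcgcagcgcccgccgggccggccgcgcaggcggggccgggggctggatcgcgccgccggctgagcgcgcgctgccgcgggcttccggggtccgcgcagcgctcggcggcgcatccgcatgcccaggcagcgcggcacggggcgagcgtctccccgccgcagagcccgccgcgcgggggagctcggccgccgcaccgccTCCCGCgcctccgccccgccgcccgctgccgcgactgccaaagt
MAEL promoter, second start: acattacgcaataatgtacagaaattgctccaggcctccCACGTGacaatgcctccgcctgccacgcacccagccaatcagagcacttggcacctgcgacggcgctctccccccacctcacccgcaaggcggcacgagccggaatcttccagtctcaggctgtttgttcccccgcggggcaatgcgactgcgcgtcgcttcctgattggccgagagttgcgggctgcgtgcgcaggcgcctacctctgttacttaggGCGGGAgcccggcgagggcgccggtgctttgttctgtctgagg

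Most of the germline genes stayed too dim to be tested, with or without the inhibitors. TEX19 was well above background often enough to be tested in RPMI-8226 cells, and TEX19 and SYCP3 in MM.1S cells, which makes 1 and 2 of the 10 members. Of all gene symbols on the array, 50.1% passed the same filter in RPMI-8226 and 53% in MM.1S. For 5 members (DAZL, DDX4, TDRD1, STK31 and HORMAD1, with 8 probes in all) no spot was well above background on any of the 16 arrays. For these genes a level near background cannot be told from none, and a change below the detection limit would not have been seen.

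**Figure D1:**
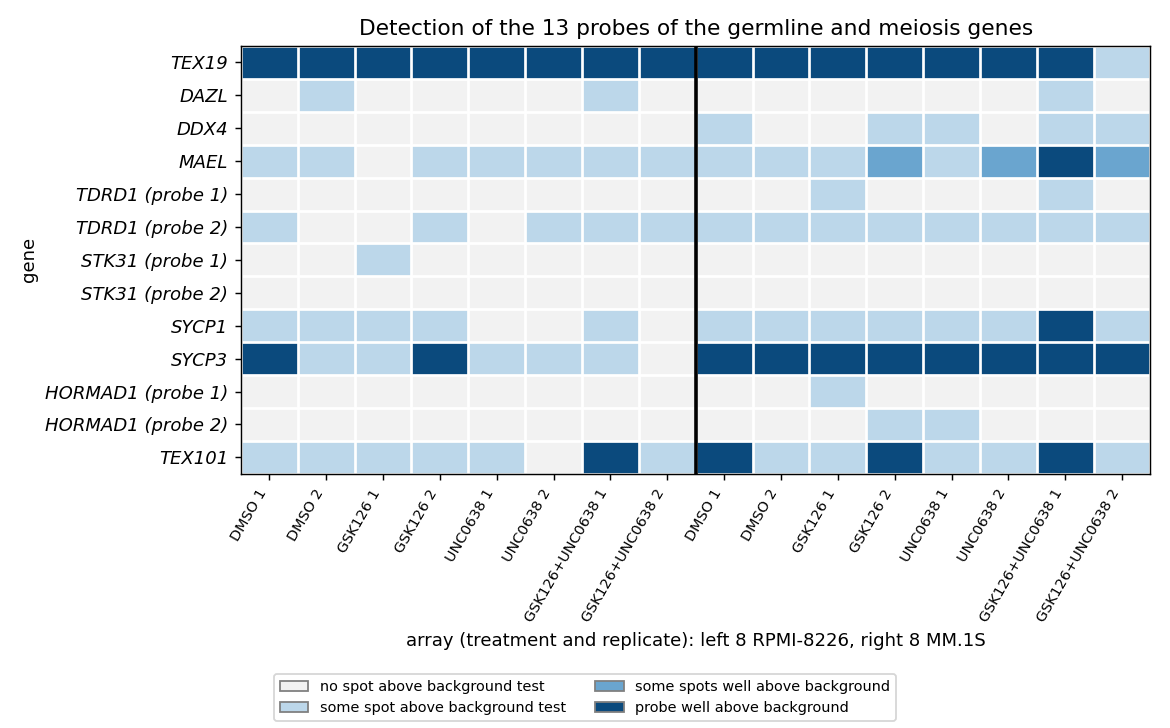
Detection of the 13 probes of the 10 germline and meiosis genes (rows) on the 16 arrays (columns, RPMI-8226 left and MM.1S right, by treatment and replicate). Dark cells mark a probe well above background, lighter cells weaker signal; TEX19 is dark on 15 of 16 arrays and SYCP3 on all 8 MM.1S arrays, while the probes of DAZL, DDX4, TDRD1, STK31 and HORMAD1 are dark on none.

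TEX19, which in germ cells and placenta takes part in the control of mobile elements, had the lowest levels under the combination in both cell lines. It was read by 1 probe on chromosome 17, between 80321545 and 80321604 of GRCh37 on the plus strand. In RPMI-8226 cells its levels were 1.10 and 1.02 with DMSO, -0.07 and 0.15 with GSK126, -0.20 and 0.12 with UNC0638, and -1.46 and -0.98 with the combination. Both single agents lay below both DMSO arrays and overlapped each other, and both combination arrays lay below all others. The differences from DMSO were -1.02 with GSK126, -1.10 with UNC0638 and -2.28 with the combination, the last being 4.86-fold lower.

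In MM.1S cells the order was different for the single agents. The levels of TEX19 were -0.98 and -0.81 with DMSO, -1.14 and -1.18 with GSK126, -2.79 and -3.13 with UNC0638, and -3.73 and -4.83 with the combination. The second combination array was not well above background. The GSK126 arrays lay just below the DMSO arrays, the UNC0638 arrays clearly below them, and the combination arrays lowest. The differences from DMSO were -0.26 with GSK126, -2.06 with UNC0638 and -3.39 with the combination. That last value was -2.84 without the second combination array, -3.94 without the first, and -1.80 after normexp background correction, which pulls dim spots together.

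**Figure D2:**
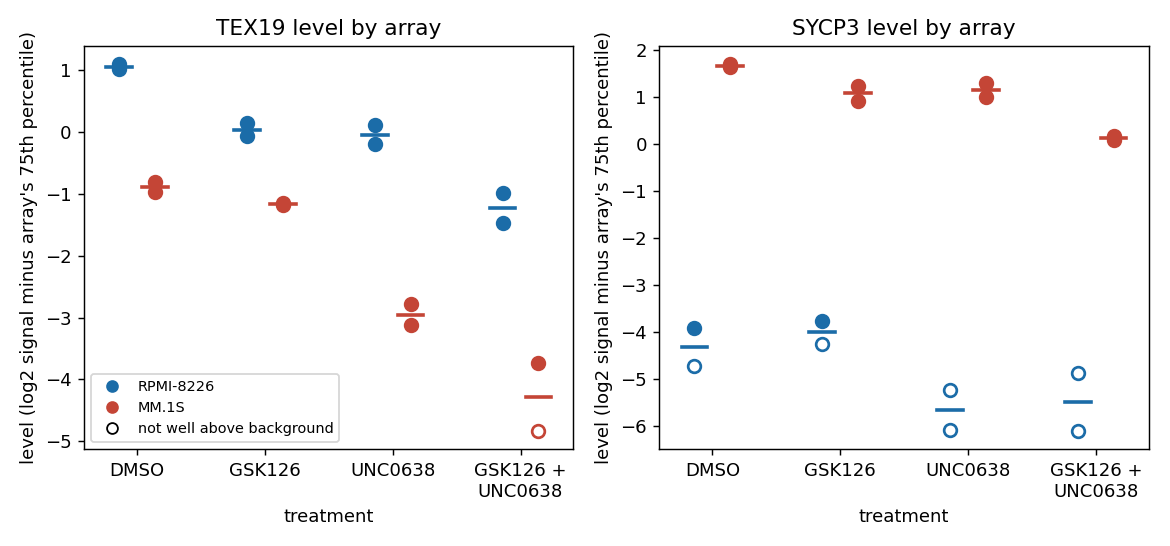
Levels of TEX19 (left) and SYCP3 (right) on each array by treatment, as log2 signal minus the 75th percentile of the array; points are arrays, bars are means of 2 arrays, and open points were not well above background. TEX19 is lowest under the combination in both cell lines, and SYCP3 in MM.1S cells runs from 1.69 and 1.63 with DMSO to 0.17 and 0.07 with the combination.

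The contrast of UNC0638 with GSK126 was tested for TEX19. The means it compares use neither DMSO nor combination arrays, but its error was pooled over all 8 arrays of the cell line, those that chose TEX19 among them. The choice of TEX19 was also made with the single-agent arrays in view, so the p-values of this contrast are not free of that choice. In RPMI-8226 cells the difference was -0.08 ± 0.21 (SE, n = 2 arrays per group, limma with Benjamini-Hochberg adjustment, adjusted p = 0.913), in a comparison where 1.42% of probes were called. In MM.1S cells TEX19 was 3.48-fold lower with UNC0638 than with GSK126, a log2 difference of -1.80 ± 0.34 (SE, limma, adjusted p = 0.0258). Of all probes 12.3% were called in this comparison and 6.23% were called lower. In a fit of the GSK126 and UNC0638 arrays alone, limma's adjusted p for TEX19 was 0.0256 for MM.1S and 0.885 for RPMI-8226. The call was lost in 6 of 8 fits that left out 1 MM.1S array, namely either array of DMSO, GSK126 or UNC0638, with adjusted p up to 0.115. The difference between the cell lines in this contrast, chosen after the values were seen, was 1.72 (limma, with the error pooled over all 16 arrays, adjusted p = 0.0641) and did not pass the threshold. It passed with the replicate number as a block (adjusted p = 0.0415) and without either combination array of MM.1S (0.0145). In the fit without the block 3.01% of probes were called.

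For the effect of adding the agents, the changes of TEX19 with the single agents summed to -2.12 in RPMI-8226 cells, against -2.28 with the combination. In MM.1S cells they summed to -2.33, against -3.39. These sums are given as descriptions.

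The 5 probes whose pattern was most like that of TEX19 belonged to NDUFAF2, NUDT5, DDX54, RPS15A and RPSA, among the 19947 other probes with a gene symbol that were tested in both cell lines. Likeness was the smaller of the Pearson correlations over the 8 arrays of each cell line, and ran from 0.964 to 0.977. The 8 arrays of a cell line fall into 4 treatment groups and share a slide, so the correlations describe the groups and carry no p. NDUFAF2 is an assembly factor of mitochondrial complex I, and RPS15A and RPSA are proteins of the small ribosomal subunit. All 5 were well above background on the DMSO and combination arrays of both cell lines.

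TEX19 lies between SECTM1 and UTS2R in the RefSeq gene order (GRCh38.p14). SECTM1, which encodes a membrane and secreted protein of leukocytes and epithelia, also fell with the combination. Its levels in MM.1S cells were -1.41 and -1.39 with DMSO, -1.87 and -1.71 with GSK126, -2.82 and -3.02 with UNC0638, and -3.85 and -5.75 with both agents. No treated array reached the DMSO arrays, and the second combination array was not well above background, as for TEX19. The fitted difference with the combination was -3.40 ± 0.56 (SE, limma, adjusted p = 0.00348), where 31.7% of probes were called lower. In RPMI-8226 cells it was -1.37 ± 0.34 (limma, adjusted p = 0.0482), where 5.17% were called lower. UTS2R, on the other side, was not called with the combination in either cell line (differences of -0.14 and -0.12, limma adjusted p = 0.842 and 0.395). Of the next genes out, CD7 had a difference of -1.49 (limma, adjusted p = 0.0941, RPMI-8226) and was not tested in MM.1S cells. OGFOD3, on the array under an older symbol, changed by -0.43 and -0.32 (limma, adjusted p = 0.161 and 0.0652), neither of them called. These neighbors were looked at after the values of TEX19 were known.

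SYCP3, a protein of the axial and lateral elements of the synaptonemal complex that holds homologous chromosomes together, was high enough to be measured in MM.1S cells and fell there. Its levels were 1.69 and 1.63 with DMSO, 0.91 and 1.23 with GSK126, 1.30 and 1.00 with UNC0638, and 0.17 and 0.07 with both agents. Both combination arrays were below all single-agent arrays, which were in turn below both DMSO arrays. With the combination SYCP3 was 2.91-fold lower than with DMSO, a log2 difference of -1.54 ± 0.15 (SE, n = 2, limma, adjusted p = 0.000584). It was the 1 member tested besides TEX19, and 53.9% of all probes were called in this comparison, so the call itself does not set SYCP3 apart.

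The combination also differed from each agent alone. The difference in SYCP3 was -0.95 against GSK126 (limma, adjusted p = 0.00563), where 37.1% of probes were called. It was -1.02 against UNC0638 (limma, adjusted p = 0.0173), where 13.5% were called. The second call was lost when replicate 1 of UNC0638 or replicate 2 of the combination was left out, with adjusted p = 0.0777 and 0.0851. With UNC0638 alone the difference from DMSO was -0.52, which just passed (limma, adjusted p = 0.0452), in a comparison where 29.3% of probes were called. This call was lost without either array of DMSO, UNC0638 or the combination, with adjusted p up to 0.184. With GSK126 alone the difference was -0.59 (limma, adjusted p = 0.0667), where 7.58% of probes were called. The single-agent changes summed to -1.11 and the combination gave -1.54, a departure of -0.43 ± 0.21 (SE) that was not called (limma, adjusted p = 0.555). In that comparison limma called 0 of the 25102 MM.1S probes tested, and 2457 had an unadjusted p under 0.05.

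In RPMI-8226 cells SYCP3 stood near background. Its levels were -3.91 and -4.72 with DMSO, -4.25 and -3.76 with GSK126, -6.10 and -5.25 with UNC0638, and -4.89 and -6.11 with the combination. Only 1 DMSO array and 1 GSK126 array were well above background. The probe was not tested within this cell line. In the joint fit of both cell lines the difference between their changes (RPMI-8226 minus MM.1S) was not called. It was 0.36 ± 0.58 with the combination (SE, limma, adjusted p = 0.727). It was 0.90 with GSK126 and -0.84 with UNC0638 (limma, adjusted p = 0.658 and 0.485). Because the RPMI-8226 values stood near background, these comparisons cannot show whether the responses were alike. The level with DMSO was lower than in MM.1S cells, but each line was on 1 slide, so line and slide cannot be told apart.

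The genes beside SYCP3 on chromosome 12 did not share its direction throughout. CHPT1 and GNPTAB, its nearest neighbors in the RefSeq order, fell in MM.1S cells by 0.35 and 0.51 on the log2 scale with the combination (limma, adjusted p = 0.0133 and 0.00988). DRAM1, an autophagy gene on the far side of GNPTAB, rose by 1.38 (limma, adjusted p = 0.000524), where 22.2% of probes were called higher. MYBPC1, beyond CHPT1, was not tested in either cell line.

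MAEL, the Maelstrom protein of the piRNA pathway, had more spots past the background test with the inhibitors, but it did not reach the level needed for a test. Its probe, on chromosome 1 between 166991073 and 166991132 of GRCh37, was printed in 10 spots on each array. In MM.1S cells the number of these spots that passed the scanner software's test against background was 3 and 1 with DMSO, 10 and 10 with GSK126, 7 and 9 with UNC0638, and 10 and 10 with the combination. All treated MM.1S arrays had more passing spots than both DMSO arrays. The share of all spots well above background, a stricter mark, was 50.39% and 49.95% with DMSO and 51.1% to 52.85% on the treated arrays. The treated arrays thus also had more marked spots over the whole array, but on an unlike measure. Whether this accounts for the MAEL counts was not tested. The number of MAEL spots with the stricter mark was 0 and 0, 0 and 3, 0 and 2, and 5 and 2 in the same order of treatments.

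The levels of the MAEL probe in MM.1S cells were -6.64 and -6.81 with DMSO, -5.38 and -5.29 with GSK126, -6.41 and -5.40 with UNC0638, and -4.80 and -5.18 with the combination. The treated arrays lay above both DMSO arrays. No fold is given, since the combination mean of -4.99 was below the detection floor of the DMSO arrays. In RPMI-8226 cells passing spots numbered 2 and 1 with DMSO, 0 and 2 with GSK126, 1 and 1 with UNC0638, and 5 and 6 with both agents. None of them was well above background. The share of all spots well above background was 47.43% and 47.09% with DMSO and 49.71% and 48.4% with the combination. The 10 spots of an array measure the same RNA sample and are not replicates.

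**Figure D3:**
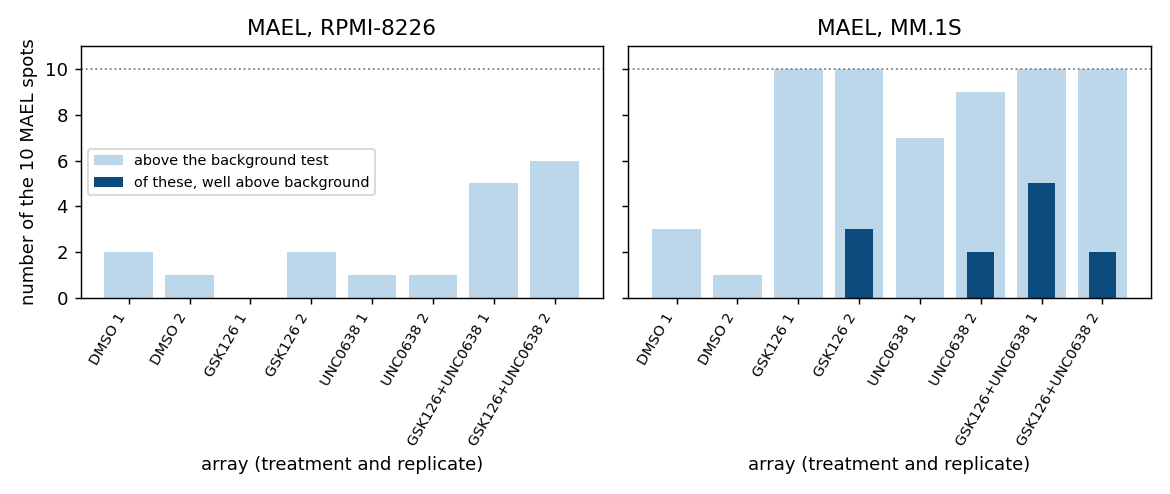
Number of the 10 MAEL spots per array that passed the background test (wide bars) and that were well above background (narrow bars), for RPMI-8226 (left) and MM.1S (right). With DMSO 1 to 3 spots passed, and with the combination 5 and 6 passed in RPMI-8226 and 10 and 10 in MM.1S.

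The other granule and RNA-binding members stayed near background. DAZL, which controls translation in germ cells, ran between -6.98 and -4.92 over the 16 arrays, and DDX4, the germ cell RNA helicase VASA, between -7.08 and -5.17. Both combination arrays of MM.1S cells passed the background test for DDX4 (-5.51 and -5.49), as did 1 of the DMSO arrays (-6.75 and -6.94), but none was well above background. TDRD1, a Tudor domain scaffold of the piRNA pathway, ran between -7.00 and -5.72 on 1 probe and between -6.56 and -4.73 on the other. STK31, a Tudor domain protein with a kinase-like part, had no level above -5.96. On its probes 1 of 16 spots passed the background test in RPMI-8226 cells and 0 of 16 in MM.1S, and the others carried the software's substitute value. Differences between such values carry no information about expression.

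Of the remaining meiosis and sperm members, SYCP1 and TEX101 passed the background test on all 8 MM.1S arrays, those with DMSO included. In RPMI-8226 cells they passed it on 5 and 7 of the 8 arrays. SYCP1, the transverse filament protein of the synaptonemal complex, was well above background on 1 array, a combination array of MM.1S cells (-4.78), whose replicate was at -5.39. The DMSO arrays of MM.1S cells were at -5.00 and -5.20, between these 2 values. HORMAD1, which monitors chromosome pairing on meiotic axes, had 0 of 16 spots past the background test in RPMI-8226 cells and 3 of 16 in MM.1S cells. TEX101, a cell surface glycoprotein of germ cells, was well above background on 4 of 16 arrays, 1 of them with the combination in RPMI-8226 cells and 1 each with DMSO, GSK126 and the combination in MM.1S cells. In no group of these genes were both arrays well above background.

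Genes of the same pathways outside the 10 members were examined as 3 lists, with 1 probe per gene, the one with the highest mean level. Among 25 piRNA pathway and germ granule genes, 9 were measurable in MM.1S cells. With the combination 4 of these rose and 2 fell, with a median difference of 0.34 beside -0.11 over all genes tested. Of all genes 23.2% were called higher and 32.2% lower. PIWIL4, a PIWI protein that binds piRNAs, was not well above background on either DMSO array and was at least 2.30-fold higher with the combination (levels -3.70 and -3.46). It passed the filter through the combination arrays alone and so had to differ, and its values are given as a description. Without it 3 of 8 genes rose, and the median of 0.34 includes it. TDRD7, a Tudor domain protein of germ granules, rose by 1.34 (limma, adjusted p = 0.000218), and TDRKH, a mitochondrial Tudor domain protein of piRNA maturation, by 0.67 (limma, adjusted p = 0.00152). DND1, an RNA-binding protein of primordial germ cells, rose by 0.34 (limma, adjusted p = 0.0469), a call lost without either array of DMSO, GSK126 or the combination. NANOS1, a translational repressor, and PLD6, a mitochondrial protein of piRNA biogenesis, fell by 0.90 and 0.60 (limma, adjusted p = 0.00636 and 0.00890). With UNC0638 alone 4 genes of this list rose, PIWIL4 among them, with GSK126 alone 1 rose, and 0 fell with either. Of all genes 13.8% were called higher and 16.5% lower with UNC0638, and 5.89% and 2.36% with GSK126.

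In RPMI-8226 cells 11 genes of the piRNA list were measurable, and with the combination 2 rose and 2 fell. Of all genes 8.16% were called higher and 4.73% lower, and the median was -0.27 beside -0.10 over all genes. With quantile normalization or the percentile over probes detected on all arrays 2 rose and 1 fell. TDRD7 went from -2.42 and -2.36 with DMSO to -0.10 and -0.46 with the combination, a rise of 2.11 or 4.32-fold (limma, adjusted p = 0.00147). HENMT1, which methylates the ends of piRNAs, rose from -0.46 and -0.35 to 0.67 and 0.89 (limma, adjusted p = 0.00519). TDRD10 fell by 1.11 (limma, adjusted p = 0.0324), and its other 2 measurable probes fell as well, but the call of the probe used was lost in 5 of 8 fits that left out an array. PLD6 fell by 0.79 (limma, adjusted p = 0.0477), a call lost when any 1 of the 8 arrays was left out. Neither single agent gave a call in this list or in the 2 below in RPMI-8226 cells, where 0.705% of all genes were called with GSK126 and 0.718% with UNC0638. Of the 51 listed genes measurable there, limma gave an unadjusted p under 0.05 for 6 with GSK126 and 2 with UNC0638. With the replicate number as a block 1 gene of this list and 1 repressor were called higher with GSK126, where 2.26% of all genes were.

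Among 36 meiotic chromosome and recombination genes, 34 were on the array and 16 were measurable in MM.1S cells, of which 3 rose and 5 fell with the combination. Of all genes 23.2% were called higher and 32.2% lower, and the median was -0.26 beside -0.11 over all genes. With the percentile taken over probes detected on all arrays 4 rose and 3 fell. REC8, the meiotic cohesin subunit, went from -2.06 and -2.25 with DMSO to -0.62 and -0.63, a rise of 1.54 (limma, adjusted p = 0.000178). SYCE3, of the central element of the synaptonemal complex, rose by 1.58 (limma, adjusted p = 0.000867), and STRA8, which starts meiosis in response to retinoic acid, by 1.64 (limma, adjusted p = 0.0241). The call of STRA8 was lost without either array of DMSO or the combination. All of them also rose with UNC0638 alone, by 1.21, 0.84 and 2.08 (limma, adjusted p = 0.00113, 0.0173 and 0.0203), where 13.8% of all genes were called higher. None was called with GSK126 alone. There SYCE3 rose by 0.76, close to its rise with UNC0638 (limma, adjusted p = 0.0547, and 0.0104 with the replicate block).

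The genes of this list that fell included several that dividing somatic cells use too. TRIP13, an ATPase of meiotic recombination and of the mitotic spindle checkpoint, went from 4.73 and 4.71 to 2.88 and 2.71, a fall of 3.79-fold (limma, adjusted p = 0.000182). PSMC3IP and MND1, partners in DNA strand exchange, fell by 1.31 and 0.60 (limma, adjusted p = 0.000840 and 0.0200). TEX15 and TEX14, needed for spermatogenesis, fell by 1.43 and 0.37 (limma, adjusted p = 0.00281 and 0.0306). The calls of MND1 and TEX14 were lost without DMSO replicate 1 or combination replicate 2, and that of TEX14 also without the other array of these groups. In RPMI-8226 cells 15 genes were measurable and 1 was called. The second probe of TRIP13 was called there too (-0.93, limma, adjusted p = 0.0171), the probe used was not. MSH5, of meiotic crossing over, fell by 0.74 (limma, adjusted p = 0.04998), and the call was lost in every fit that left out an array.

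Among 25 repressors of germline genes, all measurable in both cell lines, 3 rose and 15 fell with the combination in MM.1S cells. Of all genes 23.2% were called higher and 32.2% lower, and the median was -0.39 beside -0.11. With quantile normalization 7 rose and 10 fell, and with the percentile taken over probes detected on all arrays 6 rose and 11 fell. UHRF1, which keeps DNA methylation through cell division, fell by 1.35 (limma, adjusted p = 0.000469), EZH2 by 1.10 (limma, adjusted p = 0.00348), DNMT3B by 1.02 (limma, adjusted p = 0.000412) and TRIM28 by 0.97 (limma, adjusted p = 0.000923). L3MBTL2, a subunit of the Polycomb complex that silences germline genes, fell by 0.89 (limma, adjusted p = 0.000752). RNF2 and RYBP, of the same complex, rose by 0.84 and 0.68 (limma, adjusted p = 0.00256 and 0.000935). DNMT3A, a de novo DNA methyltransferase, rose by 1.28 (limma, adjusted p = 0.000830) on the probe used and by 0.88 and 0.58 on its other probes.

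In RPMI-8226 cells 1 of the 25 repressors rose and 1 fell with the combination, where 8.16% of all genes were called higher and 4.73% lower. The median was -0.23 beside -0.10 over all genes. With the replicate number as a block 2 rose and 2 fell, where 11.8% and 9.03% of all genes did. With quantile normalization 1 rose and 2 fell, and with the percentile over probes detected on all arrays 2 rose and 0 fell. RNF2 went from -0.37 and -0.46 to 0.63 and 0.76 (limma, adjusted p = 0.00566), and PCGF6, which belongs to the same Polycomb complex, from 0.35 and 0.23 to -0.33 and -0.24 (limma, adjusted p = 0.0410). The other probe of RNF2 was not called here (0.48, limma, adjusted p = 0.164), while in MM.1S it rose by 0.28 (limma, adjusted p = 0.0246). The PCGF6 call was lost when any 1 array was left out.

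**Figure D4:**
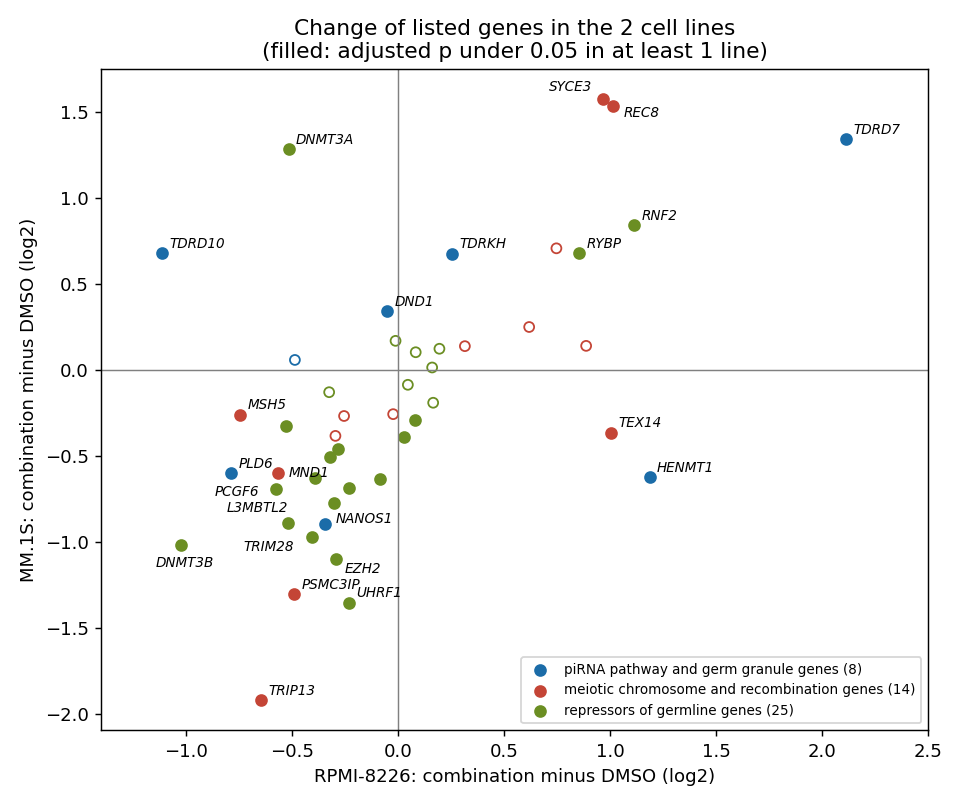
Change with the combination against DMSO (log2) in RPMI-8226 (horizontal) and MM.1S (vertical) for listed genes tested in both cell lines, 8 piRNA pathway and germ granule genes, 14 meiotic genes and 25 repressors. Filled points passed an adjusted p of 0.05 in at least 1 cell line; TDRD7, REC8, SYCE3 and RNF2 lie toward the upper right, TRIP13 and UHRF1 at the bottom, and DNMT3A and HENMT1 lie in opposite corners.

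In a fit of all 16 arrays, 8 of the 23 listed genes named above and tested in both cell lines changed differently in the cell lines with the combination, where 13.3% of all 26931 probes were called. These genes were named because they were called in a cell line, so the 2 shares are not alike.

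Markers of other cell types also moved with the treatments in both cell lines. In RPMI-8226 cells 4 of the 6 measurable ones rose and 1 fell with the combination, beside 8.16% and 4.73% of all genes, and the median difference was 2.64. The T cell gene CD3D had group means of -2.65 with DMSO and 2.35 with the combination. EPCAM, an epithelial marker, fell from a mean of 5.03 to 3.74. In MM.1S cells 2 of 6 rose and 1 fell, beside 23.2% and 32.2% of all genes. The T cell genes CD2 and CD3E went from -3.10 to -1.11 and from -4.86 to -2.47, while CD3D, at -3.62 and -3.48, was not called (limma, adjusted p = 0.693). CD3E was well above background on no DMSO array of either cell line and passed the filter through treated arrays only. It so had to differ, and the counts above and the median of 2.64 include it. EPCAM went from -2.73 to -6.13, where it was well above background on no combination array. Sums over the list add probes that bind differently and serve only to compare arrays. Summed over the list in multiples of the 75th percentile, RPMI-8226 signal was 29.2 to 39.2 with DMSO and 27.2 to 29.0 with GSK126. It was 26.6 to 29.0 with UNC0638 and 22.0 to 25.6 with the combination. EPCAM gave the largest part of these RPMI-8226 sums. They fell with the combination although 4 of the 6 measurable markers, CD3E included, rose. Over the MM.1S arrays the summed signal was 1.11 to 1.24, 0.92 to 1.03, 1.53 to 1.86 and 1.58 to 2.01 in the same order of treatments. The fibroblast marker COL3A1 was well above background on no array. Plasma cell markers called lower with the combination numbered 3 of 8 in RPMI-8226 cells, where SLAMF7 rose from a mean of -2.56 to 2.33, and 8 of 8 in MM.1S cells. The part of these changes in the results for germline genes was not tested.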

How the data were processed

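Gene expression was measured with the Agilent SurePrint G3 Human GE v2 array in RPMI-8226 and MM.1S cells, 16 samples in 8 groups of cell line and treatment with 2 replicates each. The authors labelled total RNA with the Low Input Quick Amp 1-colour kit. Agilent Feature Extraction (version 10.7, per the submitters' notes) gave the deposited intensity of each spot on a linear scale, after background subtraction, with no normalization between arrays. The value table of the series, also deposited as intensity, equalled it after rounding to 3 significant digits for 99.9955% of values. For the arrays the study names the GeneSpring GX software, counted probe sets by fold change and ran gene set enrichment, and no test of single probes is given in the sources used here.

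Control spots (4259 of 62976) and outlier spots were left out, log2 values were scaled to the 75th percentile of the array, and spots of a probe were averaged. With 2 arrays per group, precision depends on their number and on signal over background. Each cell line was fitted on its own with limma 3.58.1 in R 4.3.3 (8 arrays, 23199 probes in RPMI-8226, 25102 in MM.1S), and differences between cell lines came from a fit of all 16 arrays (26931 probes). Benjamini-Hochberg adjustment ran over all probes tested, with a threshold of 0.05. "At least" folds set the brighter mean against the lowest signal well above background on the dimmer arrays. The fits were tested on simulated data.

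The members, lists and tests were chosen with earlier results of these data known. Genes named are all members, up to 5 called genes per list and direction with the combination in either cell line, and the 5 probes most like TEX19. Of the genes listed, 3 were not found on the array. Same-numbered arrays deviated together in 6 of 6 pairs of groups in RPMI-8226 cells (r from 0.254 to 0.415), so the labels' numbers may pair them. The main fits did not use this pairing, and the replicate block was run as an alternative. On the slide of each cell line a replicate number kept to 1 row and a treatment to 1 column. Replicate number and row cannot be told apart, nor can treatment and column. Nothing says how the replicate cultures were set up, so p-values measure the spread between these samples. Alternatives were quantile normalization, a percentile over probes detected on all arrays, normexp (offset 50), no filter, a filter on all 8 arrays, the series table, the replicate block, 1 fit over 16 arrays, only the groups compared, an intensity-dependent prior variance and leaving out each array. Promoter sequences were from RefSeq (GRCh38.p14), and probe positions from the deposited files (GRCh37).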

Additional observations from a re-analysis of the deposited data

Results flagged for a closer look

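Of the 23 listed genes named above and tested in both cell lines, 8 changed differently in the cell lines with the combination, by limma's test of the difference (RPMI-8226 minus MM.1S, log2, adjusted over 26931 probes). The difference was -1.80 for DNMT3A (adjusted p = 0.00115), -1.79 for TDRD10 (0.0220), 1.81 for HENMT1 (0.00251), 1.27 for TRIP13 (0.00369), 1.12 for UHRF1 (0.0292), 0.82 for PSMC3IP (0.0215), 0.81 for EZH2 (0.0430) and 0.77 for TDRD7 (0.0337). DNMT3A changed by -0.52 in RPMI-8226 and by 1.28 in MM.1S cells, although its 3 probes differed in direction in RPMI-8226 cells, where none was called. HENMT1 changed by 1.19 and by -0.62, and the second was not called (adjusted p = 0.0534), although it was in 10 of the other settings run, the replicate block among them (0.0122). TDRD10 changed by -1.11 and 0.68, the second not called (adjusted p = 0.117, range 0.162 to 1.19 without single arrays), and was well above background on 1 of the MM.1S DMSO arrays. TDRD7 rose in both cell lines and rose more in RPMI-8226 cells. TRIP13, UHRF1, PSMC3IP and EZH2 fell in MM.1S cells. On the probes used they were not called in RPMI-8226 cells (-0.65, -0.23, -0.49 and -0.30, limma, adjusted p = 0.0590, 0.551, 0.0659 and 0.198). The second probe of TRIP13 was called lower there (-0.93, limma, adjusted p = 0.0171). Each cell line was hybridised on its own slide, so cell line and slide cannot be told apart.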

How the results depend on the processing

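The fall of SYCP3 in MM.1S cells with the combination, and against GSK126, kept its direction and its call under the alternatives run, except that against GSK126 in 1 fit over all 16 arrays (-0.95, adjusted p = 0.127). Its range without single arrays was -1.59 to -1.49 with the combination and -1.11 to -0.79 against GSK126. Against UNC0638 the call was lost with no filter (-1.02, adjusted p = 0.0585), in 1 fit over all arrays (-1.02, 0.184) and with only the groups compared (-1.02, 0.0661), and without single arrays the range was -1.17 to -0.87. For UNC0638 against DMSO the call was lost with quantile normalization (-0.46, 0.0836), the percentile over probes detected on all arrays (-0.42, 0.0847), no filter (-0.52, 0.125), the replicate block (-0.52, 0.0587), 1 fit over all arrays (-0.52, 0.449) and only the groups compared (-0.52, 0.0667), so that 0 members other than TEX19 were then called, and the range without single arrays was -0.67 to -0.37 (0 to 1 members called). For GSK126 against DMSO SYCP3 was called with normexp (-0.50, 0.0313), the filter on all arrays (-0.59, 0.0454) and the intensity-dependent prior variance (-0.59, 0.0148), which makes 1 member. UNC0638 against GSK126 for SYCP3 ranged from -0.0857 to 0.232 without single arrays, and turned to -0.0857 and -0.0773 without replicate 1 of GSK126 or of UNC0638. No filter called 2 members other than TEX19 with the combination in MM.1S cells, MAEL and SYCP3, but most MAEL spots with DMSO held substitute values. With normexp 1 member differed between the cell lines with the combination, SYCP3, which stood near background in RPMI-8226 cells.

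For TEX19, UNC0638 against GSK126 in MM.1S cells lost its call with no filter (-1.80, 0.0770) and ranged from -1.97 to -1.63 without single arrays. In RPMI-8226 cells it ranged from -0.238 to 0.0801, with 0.0304 and 0.0801 without replicate 2 of GSK126 or replicate 1 of UNC0638. The difference between the cell lines, not called in the main fit (limma, adjusted p = 0.0641), passed with normexp (1.08, 0.00763) and the replicate block (1.72, 0.0415). It ranged from 1.55 to 1.89 without single arrays. This difference was chosen after the values were seen, and p-values of the contrast are not free of the choice of TEX19. The differences of TEX19 from DMSO kept their direction in every setting run, and with normexp they were -1.83 (RPMI-8226, combination), -1.35 (MM.1S, UNC0638) and -1.80 (MM.1S, combination).

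Of the meiotic list in RPMI-8226 cells, 0 genes were called with quantile normalization, the percentile over detected probes, the series table, no filter and only the groups compared, 4 with normexp and the prior variance and 5 in 1 fit over all arrays, with 0 to 2 without single arrays. Of the same list in MM.1S cells 5 were called with no filter and 5 to 9 without single arrays. Of the repressors in RPMI-8226 cells, 4 were called with normexp, the block and the prior variance, 6 in 1 fit over all arrays, 1 with no filter and only the groups compared, and 1 without any single array. Of the piRNA list in RPMI-8226 cells, 2 were called with no filter and only the groups compared, and 2 to 3 without single arrays. DND1 in RPMI-8226 cells, which was not called, turned to 0.0736 with the percentile over detected probes and to 0.096 and 0.0146 without replicate 2 of DMSO or replicate 1 of the combination (range without single arrays -0.201 to 0.096), and TEX14, also not called there, turned to -0.119 without replicate 2 of DMSO (range -0.119 to 2.13). The cause was not tested. The percentile over detected probes shifted the median of all probes with the combination by 0.13 in RPMI-8226 and 0.19 in MM.1S cells.

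In MM.1S cells 5 of 6 pairs of groups deviated together (r from 0.0847 to 0.225), so the numbers were not taken to pair the samples, and the block changed no other call of the members. Slide and cell line coincide, and a slide block was not run. The filter on all arrays leaves no TEX19 value in MM.1S cells. Where 1 array was left out, the lone array of its group was assumed to vary like the other groups. Signal over background limits what can be said of 8 of the 10 members.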
